A study of Mus musculus with 6 samples.

Results

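Circadian clock genes are described here in the terminal ileum, the last stretch of the small intestine, of C57BL/6 mice taken at postnatal day 9. The 10 genes were picked by name (Per1, Per2, Per3, Cry1, Cry2, Dbp, Nr1d1, Nr1d2, Arntl and Ciart) out of 55487 gene identifiers with a value, and all 10 had one. RNA-seq was done on 3 libraries labelled NEC and 3 labelled control. NEC is necrotizing enterocolitis, an inflammatory disease of the bowel of preterm infants. Its induction in these pups is described as gavage with hyperosmolar formula milk, hypoxia in 5% oxygen for 10 min 3 times a day over 4 days, and lipopolysaccharide, a bacterial cell wall product, given by mouth at a daily 4 mg/kg on days 6 and 7 of life. The control labels carry the same treatment text, so what the controls were fed and how they were handled is not stated. No genotype or transgene is named for either group, and nothing says that each library came from its own animal. The p-values therefore speak of the spread from library to library, which may be technical. The labels give no hour of the day at which tissue was taken. A difference in clock phase and a difference in mean level between the groups therefore cannot be told apart.

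The clock of mammalian cells is a feedback loop of transcription. BMAL1, the protein of Arntl, pairs with CLOCK or with its paralog NPAS2 and switches on the Per and Cry genes, the Rev-erb genes Nr1d1 and Nr1d2, Dbp and Ciart through a DNA motif called the E-box. PER and CRY proteins and CIART then hold the activator down, REV-ERB proteins repress Arntl and ROR proteins activate it through a shared element, and DBP, TEF and HLF act on D-box motifs. Over a day the Arntl and Npas2 transcripts peak roughly opposite to those of Dbp, Nr1d1 and the Per genes. In the gut the phase follows feeding time.

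Values are FPKM, fragment counts scaled by transcript length and by library depth, so levels of different genes can be set side by side. The depth read from the smallest steps of the values was 16.9 to 18.7 M fragments in NEC and 15.2 to 16.2 M in control. NEC 1 stood apart. Its log2 values over all tested genes correlated with NEC 2 at 0.942 and with NEC 3 at 0.932, while NEC 2 correlated with NEC 3 at 0.972, so results are also given without NEC 1. All 7 markers of absorptive enterocytes, the main cell of the ileal lining, had a value above 0 in every library. However, Fabp1 was at 194, 145 and 70.6 FPKM in NEC and only at 0.232, 0.475 and 0.781 FPKM in control. Sis was at 35.2, 37.1 and 20.9 FPKM in NEC and at 1.84, 1.71 and 0.987 FPKM in control. Gata4, a transcription factor of the upper small intestine, was at 7.96, 7.28 and 3.74 FPKM in NEC and at 0.184, 0.0852 and 0.0622 FPKM in control. Fabp6, the bile acid-binding protein that marks ileal enterocytes, was at 0.123, 0 and 10.4 FPKM in NEC and at 1.20, 1.23 and 2.45 FPKM in control. Guca2b, which encodes the gut peptide uroguanylin, was at 462, 332 and 245 FPKM in NEC and at 121, 124 and 135 FPKM in control. The groups overlapped for Slc10a2, the ileal bile acid transporter (1.01 to 2.30 FPKM in NEC, 1.31 to 2.21 in control), and for Onecut2 of the upper bowel (0.0825 to 0.254 FPKM in NEC, 0.0760 to 0.142 in control). Gata4 and Guca2b were thus higher in every NEC library than in any control library. Fabp6 was below all controls in NEC 1 and 2 and above them in NEC 3. Whether both groups were sampled at the same level of the bowel was not tested. The part of these marker differences in the clock gene results was not tested.

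The promoters were read for the motifs through which clock proteins act. RefSeq windows on build GRCm38.p6, from 250 bases before to 50 after a transcription start, were matched for 9 of the 10 genes, all but Per2. They were searched on both strands for the E-box CACGTG, its variant CACGTT (the E'-box), the D-box as TTATGTAA or TTACGTAA, and the ROR element as TAGGTCA or TGGGTCA. The stretches below were chosen to show each kind of motif, and capitals mark the motifs. Per3 and Cry1 are the members with D-boxes and with both E-box forms, Ciart has the most E-boxes of the members, and the Arntl stretch holds its only match.
Per3, chr4:151044666-151044915, minus strand: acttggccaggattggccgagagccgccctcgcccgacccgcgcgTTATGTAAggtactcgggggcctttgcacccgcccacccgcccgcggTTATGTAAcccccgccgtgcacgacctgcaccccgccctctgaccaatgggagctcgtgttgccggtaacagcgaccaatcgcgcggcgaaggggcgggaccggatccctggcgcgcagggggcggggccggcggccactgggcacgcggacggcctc
Cry1, chr10:85185055-85185304, minus strand: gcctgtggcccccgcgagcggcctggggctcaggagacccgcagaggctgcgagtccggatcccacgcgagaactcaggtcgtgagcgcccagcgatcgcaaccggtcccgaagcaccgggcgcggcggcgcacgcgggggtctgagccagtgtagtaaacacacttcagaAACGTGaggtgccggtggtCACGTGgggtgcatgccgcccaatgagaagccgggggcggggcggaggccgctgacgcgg
Ciart, chr3:95882229-95882478, minus strand: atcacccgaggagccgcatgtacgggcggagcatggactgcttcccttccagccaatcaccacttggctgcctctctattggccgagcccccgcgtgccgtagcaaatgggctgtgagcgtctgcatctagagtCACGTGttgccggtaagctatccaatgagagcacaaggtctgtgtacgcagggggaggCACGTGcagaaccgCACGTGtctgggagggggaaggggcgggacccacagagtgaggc
Arntl, chr7:113207530-113207559, plus strand: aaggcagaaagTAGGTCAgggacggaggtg

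The Per3 window held the D-box form TTATGTAA at positions -205 and -158 from its start, and of 32851 RefSeq windows 1.06% held a D-box and 0.0244% held at least 2. Ciart had E-boxes at -116, -58 and -44, where 7.15% of windows held at least 1 and 0.594% held at least 2. Cry1 had an E-box at -60 and an E'-box at -79. Cry2 had an E'-box at -166 and Nr1d1 had one at -28 (4.68% of windows held one). In Cry1 it reads AACGTG, the other strand of CACGTT. The first of the Per1 starts had an E-box at -166, and the second of the Arntl starts had a ROR element at 31 bases after it (6.45% of windows). No motif overlapped another in these windows. The Dbp and Nr1d2 windows held none of these letters. A match is a string of letters and was not tested as a bound site.

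**Figure D1:**
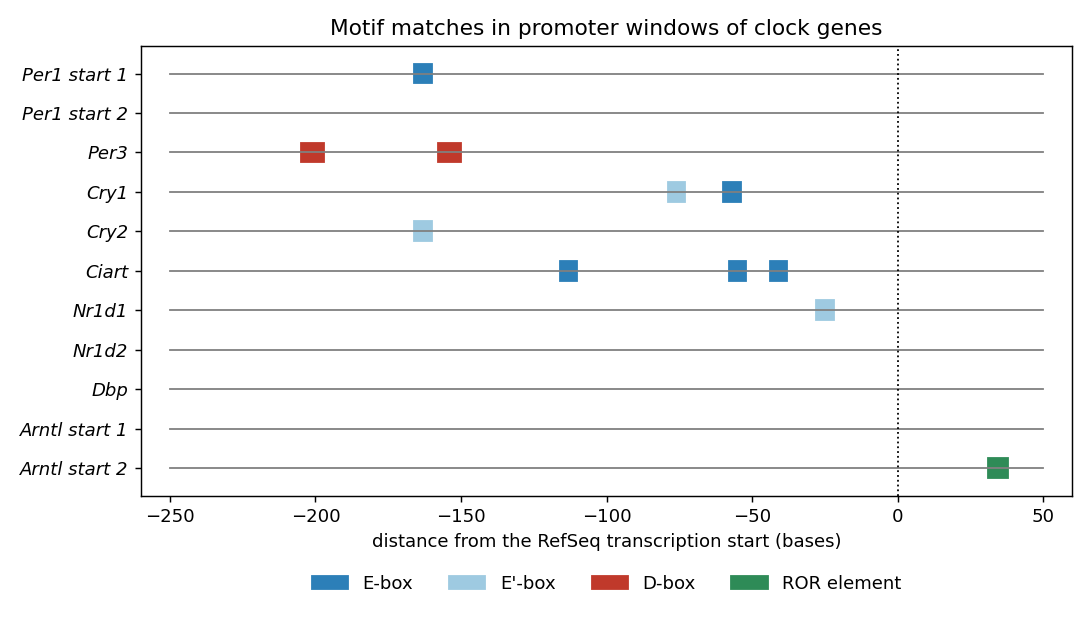
Motif matches in the RefSeq promoter windows of 9 clock genes, placed by distance from the RefSeq transcription start (dotted line) and drawn to scale. Per3 alone among them has D-boxes (red), and Ciart has 3 E-boxes (dark blue).

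The first question was whether the clock genes differed between NEC and control ileum. Of the 9 members that averaged 1 FPKM or more over the 6 libraries and so were tested, 5 were called, meaning an adjusted p under 0.05 (limma with Benjamini-Hochberg adjustment over 15806 genes). Cry1 and Cry2 rose, and Per3, Nr1d2 and Dbp fell. Of all tested genes 38.2% were called, 7.69% higher and 30.6% lower, so 2 higher and 3 lower of 9 is read against those shares. Groups did not overlap for 7 of the 9, 2 with NEC above and 5 with NEC below, against 59.1% of all tested genes, 11.8% above and 47.3% below. The median log2 difference of the 9 was -0.20, and that of all tested genes was -0.26. TMM scaling, a rescaling of libraries by their trimmed mean ratio, moved the median of all genes to 0.01 and that of the 9 to 0.09. Cry1 and Cry2 were again called higher and Per3, Nr1d2 and Dbp lower, where 31.1% of all genes were called, 16.8% higher and 14.3% lower. These were also the calls with quantile normalization (29.0% of genes called, 13.9% higher and 15.1% lower) and without NEC 1 (43.3%, 9.77% and 33.5%). Without control 1 or control 2, Nr1d2 was the 1 member of 9 called, where 9.93% and 8.92% of all genes were, and without control 3 Nr1d2 and Per3 were called, where 16.9% of all genes were.

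**Figure D2:**
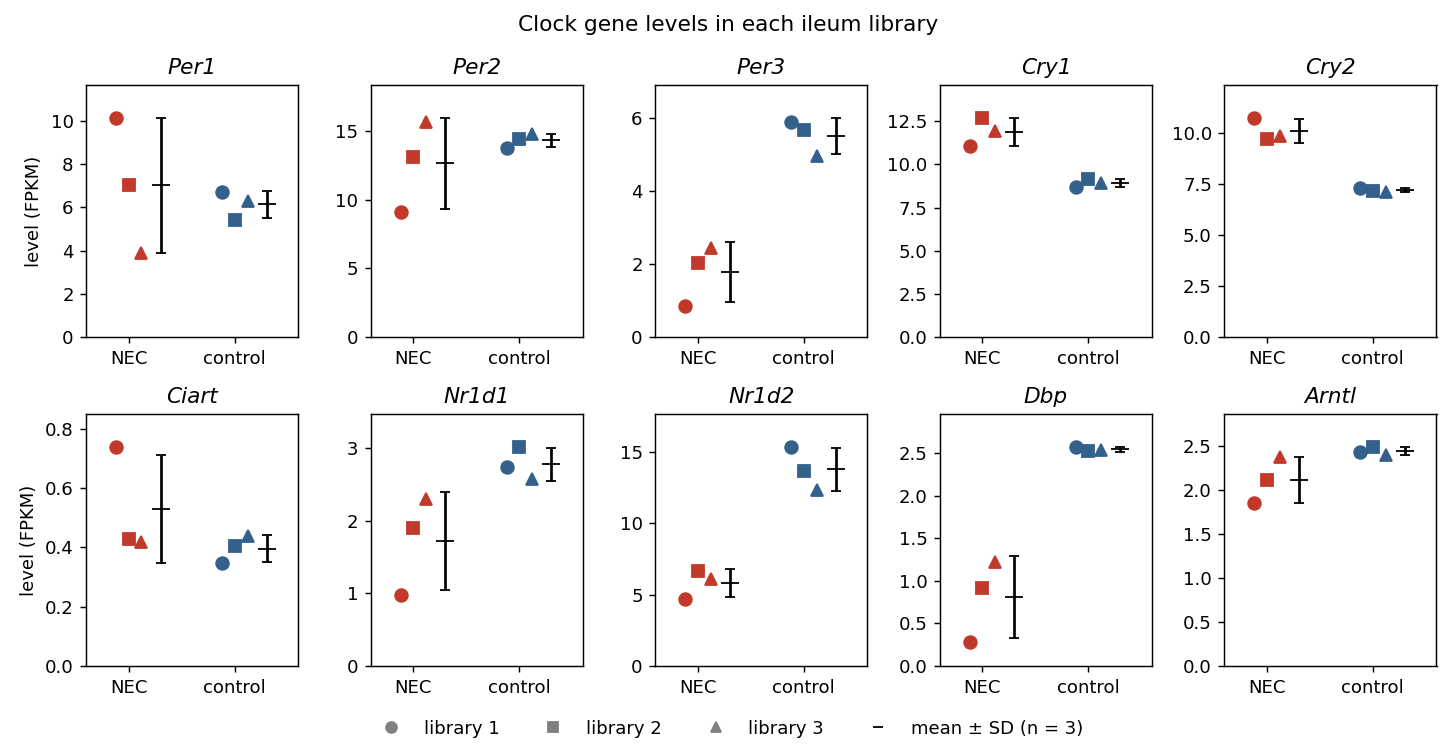
Level of each clock gene in FPKM in every library, with circles, squares and triangles for libraries 1, 2 and 3 and bars for the mean and SD (n = 3 each). The NEC points of Per3, Nr1d2 and Dbp lie below all control points, those of Cry1 and Cry2 lie above them, and NEC 1 is the lowest NEC library in 7 of the 10 panels. The share of all tested genes that were lowest in NEC 1 was not counted.

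Of the Period genes, whose proteins are the inhibitory partners of the cryptochromes, Per3 fell, and Per1 and Per2 did not pass the test. Per3 (chromosome 4, 151003652 to 151044665, minus strand) was at 0.851, 2.02 and 2.43 FPKM in NEC 1, 2 and 3, against 5.90, 5.67 and 4.96 FPKM in control 1, 2 and 3. All NEC libraries were low and the groups did not overlap. The NEC mean was 0.321 times the control mean, and on the log2(FPKM + 1) scale Per3 fell by 1.28 (SE 0.23, adjusted p = 0.0112, limma). Fewer cells that express a gene and less of its RNA per cell cannot be told apart in bulk tissue. The Per3 call was lost without control 1 (adjusted p = 0.0507) or control 2 (0.0514), and without NEC 1 the log2 difference was -1.01.

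Per2 (chromosome 1, 91415982 to 91459324, minus strand) was the highest of the 10 genes in both groups. It was at 9.13, 13.1 and 15.7 FPKM in NEC, against 13.8, 14.4 and 14.8 FPKM in control. NEC 1 lay below every control library, NEC 2 below them by less and NEC 3 above them. Its log2 difference was -0.20, with a 95% interval of -0.63 to 0.24 (adjusted p = 0.417, limma), and 0.13 with TMM scaling. Per1 (chromosome 11, 69095217 to 69109960, plus strand), the Period gene that also answers to glucocorticoid and cAMP signals, was at 10.1, 7.03 and 3.91 FPKM in NEC, against 6.69, 5.43 and 6.29 FPKM in control. NEC libraries lay on both sides of the controls, and the NEC SD was 3.12 FPKM against 0.645 FPKM in control. Its log2 difference was 0.10 (interval -0.58 to 0.77, adjusted p = 0.805, limma), and -0.18 without NEC 1. Neither interval shows that Per1 or Per2 was equal in the groups.

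Both cryptochrome genes, whose proteins block the BMAL1 complex, rose. Cry1 (chromosome 10, 85131700 to 85185064, minus strand) was at 11.1, 12.7 and 11.9 FPKM in NEC, against 8.71, 9.13 and 8.92 FPKM in control. Cry2 (chromosome 2, 92403646 to 92434043, minus strand) was at 10.8, 9.69 and 9.85 FPKM in NEC, against 7.32, 7.18 and 7.11 FPKM in control. Every NEC library was above every control library for both genes. The rises were small: Cry1 by 0.38 (SE 0.09, adjusted p = 0.0216) and Cry2 by 0.44 (SE 0.09, adjusted p = 0.0142, limma). With TMM scaling, Cry1 was higher by 0.70 and Cry2 by 0.75. The Cry1 call was lost without NEC 2 (adjusted p = 0.0604) and without control 1, 2 or 3 (0.0876, 0.0792 and 0.071), and the Cry2 call without control 1, 2 or 3 (0.0613, 0.0667 and 0.0543).

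Ciart (chromosome 3, 95878503 to 95882251, minus strand), also called Chrono, encodes a repressor of the BMAL1 complex. It was at 0.740, 0.429 and 0.418 FPKM in NEC, against 0.348, 0.403 and 0.437 FPKM in control. NEC 1 was above all other libraries and the rest overlapped. Its mean was under the filter of 1 FPKM. Without that limit its log2 difference was 0.12 (interval -0.12 to 0.37, adjusted p = 0.449, limma), and its NEC 1 value stands for about 4.66 to 24.3 fragments, depending on which annotated transcript is taken.

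The Rev-erb genes encode nuclear receptors that repress Arntl and Npas2. Nr1d2 (chromosome 14, 18204054 to 18239127, minus strand), which encodes REV-ERB beta, was at 4.71, 6.67 and 6.05 FPKM in NEC, against 15.3, 13.6 and 12.3 FPKM in control. The NEC libraries were close together and far below the controls. Nr1d2 fell by 1.12 (SE 0.14, adjusted p = 0.00527, limma), its NEC mean was 0.422 times the control mean, and it was the one member whose call held in all 14 alternative settings. Nr1d1 (chromosome 11, 98767932 to 98775333, minus strand), which encodes REV-ERB alpha, was at 0.979, 1.90 and 2.30 FPKM in NEC, against 2.74, 3.02 and 2.57 FPKM in control. The groups did not overlap, although NEC 3 came close to control 3. The log2 difference of Nr1d1 was -0.50 (interval -0.98 to -0.03) and did not pass (adjusted p = 0.0852, limma), although it did without NEC 3 (0.0398) and with array weights (0.0382). It was -0.29 without NEC 1, -0.27 with TMM scaling and -0.14 with quantile normalization (adjusted p = 0.0696, 0.238 and 0.459). Of its exonic bases, 8.55% are shared with Thra on the other strand, and no strand setting was given. Thra, a thyroid hormone receptor gene, was at 13.9, 20.5 and 23.1 FPKM in NEC and at 32.1, 32.3 and 33.2 FPKM in control, and fragments of the shared bases cannot be told apart. Per length, Nr1d2 was 4.81, 3.51 and 2.64 times as abundant as Nr1d1 in NEC, and 5.60, 4.52 and 4.78 times in control, a ratio chosen after its values were seen.

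Dbp (chromosome 7, 45705088 to 45710203, plus strand), the D-box activator and a direct output of BMAL1, was at 0.280, 0.921 and 1.22 FPKM in NEC, against 2.57, 2.52 and 2.53 FPKM in control. The controls were nearly equal, and NEC 1 was the lowest library. Dbp fell by 1.01 (SE 0.21, adjusted p = 0.0151, limma), with an NEC mean of 0.318 times the control mean. The value of NEC 1 rests on about 3.86 to 8.69 fragments, against 31.3 to 75.4 fragments in the control libraries. Dbp passed the filter through its control level, since its NEC mean was 0.808 FPKM. Of its exonic bases 18.0% are shared with Sphk2 on the other strand, a gene at 6.90, 10.4 and 8.29 FPKM in NEC and at 7.16, 6.80 and 7.73 FPKM in control. The call was lost without control 1, 2 or 3 (adjusted p = 0.0595, 0.0599 and 0.0505), and without NEC 1 the log2 difference was -0.78.

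Arntl (chromosome 7, 113207465 to 113314126, plus strand), which encodes the activator BMAL1, was at 1.85, 2.11 and 2.37 FPKM in NEC, against 2.43, 2.49 and 2.40 FPKM in control. All NEC libraries were below all controls, NEC 3 by a narrow margin. Its log2 difference was -0.15 (interval -0.41 to 0.11, adjusted p = 0.302, limma), 0.09 with TMM scaling and 0.21 with quantile normalization. The interval on the deposited scale ends well short of the falls of Per3, Nr1d2 and Dbp.

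By mean level per length, the order in NEC was Per2, Cry1, Cry2, Per1, Nr1d2, Arntl, Per3, Nr1d1, Dbp and Ciart, and the ranges of neighbours were apart for Cry1 and Cry2 and for Nr1d2 and Arntl, while those of the other neighbours overlapped. In control the order was Per2, Nr1d2, Cry1, Cry2, Per1, Per3, Nr1d1, Dbp, Arntl and Ciart, and the ranges of neighbours overlapped for Per2 and Nr1d2, for Per1 and Per3, and for Nr1d1 and Dbp. Arntl was thus above Per3, Nr1d1 and Dbp by mean in NEC and below them in control. Cry1 was 13.0, 6.28 and 4.90 times as abundant per length as Per3 in NEC, and 1.48, 1.61 and 1.80 times in control. This last pair was chosen after its values were seen.

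The second question was whether the balance between Arntl and its partners, which peak at other hours, differed. The log2 ratio of (Arntl + 1) to (partner + 1) FPKM sets 2 genes of the same library against each other, and it was compared for 9 pairs by two-sided exact permutation tests, which with 3 against 3 libraries cannot go below p = 0.1. For Arntl to Dbp the ratio was 1.16, 0.70 and 0.60 in NEC, against -0.06, -0.01 and -0.06 in control, a difference of 0.86, or 1.52 at a pseudocount of 0.1. For Arntl to Per3 it was 0.62, 0.04 and -0.03 in NEC, against -1.01, -0.94 and -0.81 in control, a difference of 1.13. Arntl therefore stood higher relative to these genes in every NEC library. On the log2(FPKM + 1) scale each mean difference equals the log2 difference of Arntl minus that of the partner. The mean differences thus restate the single-gene results, with the value of Arntl shared by all 9 pairs, and are not separate evidence. The ratios to Nr1d2 and Nr1d1 were higher in NEC by 0.97 and 0.35, the second by 0.20 without NEC 1 and 0.53 at a pseudocount of 0.1, and for those to Cry1 and Cry2 the differences were -0.52 and -0.58, lower in NEC. These 6 pairs did not overlap between groups and each had the smallest p the exact permutation test allows (p = 0.1, and 0.15 adjusted over the 9 pairs). Of all tested genes taken singly, 59.1% did not overlap between groups. Ratios of Arntl to all tested genes were not tested, so 6 of 9 is not shown to be particular to clock genes. The ratios to Per1, Per2 and Ciart overlapped, with differences of -0.24, 0.05 and -0.27 (exact permutation p = 0.7, 0.9 and 0.2, adjusted p = 0.788, 0.9 and 0.257).

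**Figure D3:**
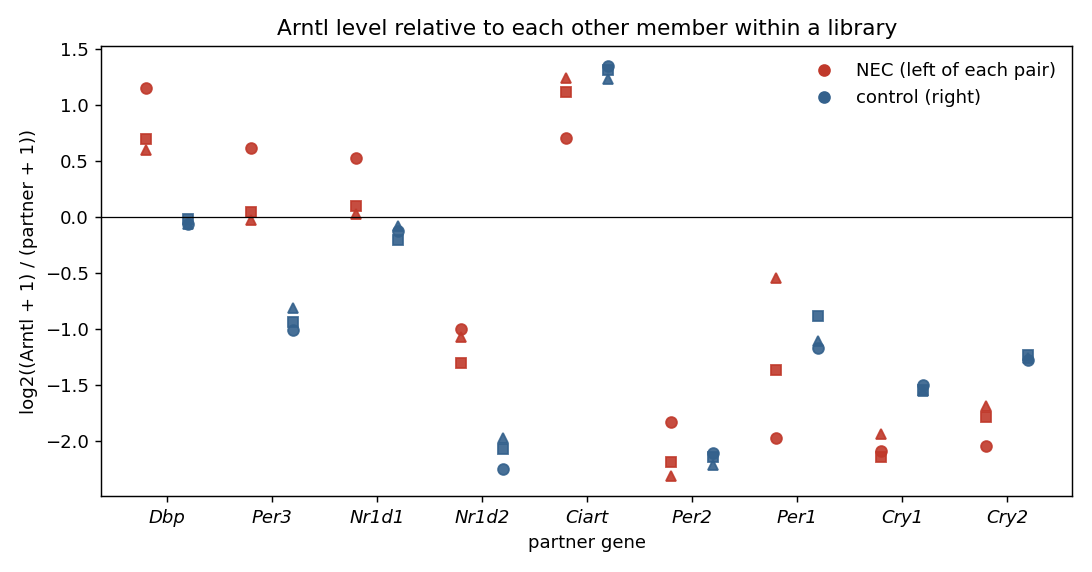
Log2 ratio of Arntl to each other clock gene within each library, NEC in red on the left of each pair and control in blue on the right, with circles, squares and triangles for libraries 1, 2 and 3. NEC lies above control for Dbp, Per3, Nr1d1 and Nr1d2, below it for Cry1 and Cry2, and overlaps it for Ciart, Per2 and Per1.

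The other parts of the clock loops were read from a list of 17 genes, of which 11 were tested, 1 was higher and 4 were lower, with 6 not passing and a median log2 difference of -0.17. Of all tested genes 7.69% were higher and 30.6% lower, with a median of -0.26. With TMM scaling 3 of the 11 were higher and 2 were lower, where 16.8% and 14.3% of all genes were. Npas2, the paralog of Clock that also pairs with BMAL1, was at 9.71, 9.75 and 9.40 FPKM in NEC, against 5.20, 5.16 and 5.76 FPKM in control. It rose by 0.74 (SE 0.09, adjusted p = 0.00477, limma), with tight groups that did not overlap and a call in all 14 alternative settings. Clock itself was at 3.77, 5.83 and 7.87 FPKM in NEC and at 7.95, 5.82 and 6.34 FPKM in control, and its groups overlapped (log2 difference -0.21, adjusted p = 0.495, limma). Rora, which encodes a ROR activator of Arntl, was at 1.05, 1.65 and 1.62 FPKM in NEC, against 4.33, 4.13 and 4.04 FPKM in control, and fell by 1.09 (SE 0.13, adjusted p = 0.00477, limma).

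The D-box partners of Dbp were low in NEC too. Tef was at 1.25, 4.44 and 5.04 FPKM in NEC, against 10.3, 9.72 and 9.21 FPKM in control, and fell by 1.36 (SE 0.36, adjusted p = 0.0282, limma). NEC 1 was far below NEC 2 and 3, and the call was lost with TMM scaling (adjusted p = 0.0502), without a filter (0.0551) and without control 1, 2 or 3 (0.0875, 0.0849 and 0.0744). Hlf was at 0.194, 0.475 and 0.610 FPKM in NEC, against 1.73, 1.47 and 1.52 FPKM in control. Its mean over the 6 libraries fell just short of the filter, and without the filter its log2 difference was -0.86 (adjusted p = 0.0196, limma). Nfil3, whose protein represses at D-boxes, was at 21.1, 6.74 and 4.42 FPKM in NEC, against 8.18, 9.11 and 8.80 FPKM in control. It was above all controls in NEC 1 and below them in NEC 2 and 3, so its log2 difference was 0.01 with NEC 1 and -0.58 without it (adjusted p = 0.991 and 0.0335, limma).

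Among the genes that repress the E-box or act on the PER and CRY proteins, Bhlhe40 was at 34.4, 42.5 and 33.8 FPKM in NEC, against 28.5, 32.5 and 32.1 FPKM in control, and did not pass (log2 difference 0.24, adjusted p = 0.152), although it did with TMM scaling (0.58, adjusted p = 0.0189, limma). Bhlhe41 was at 0.0649, 0.144 and 0.110 FPKM in NEC and at 0.202, 0.352 and 0.297 FPKM in control, under the filter. Csnk1e, a casein kinase that marks PER proteins for breakdown, fell by 0.61 and Btrc, part of the ubiquitin ligase that then takes them up, fell by 0.64 (adjusted p = 0.00997 and 0.0101, limma). The Csnk1e call was lost with TMM scaling and with quantile normalization (adjusted p = 0.0544 and 0.0604) and without control 2 (0.0525), and the Btrc call without control 1 or 2 (0.0519 and 0.0534).

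**Figure D4:**
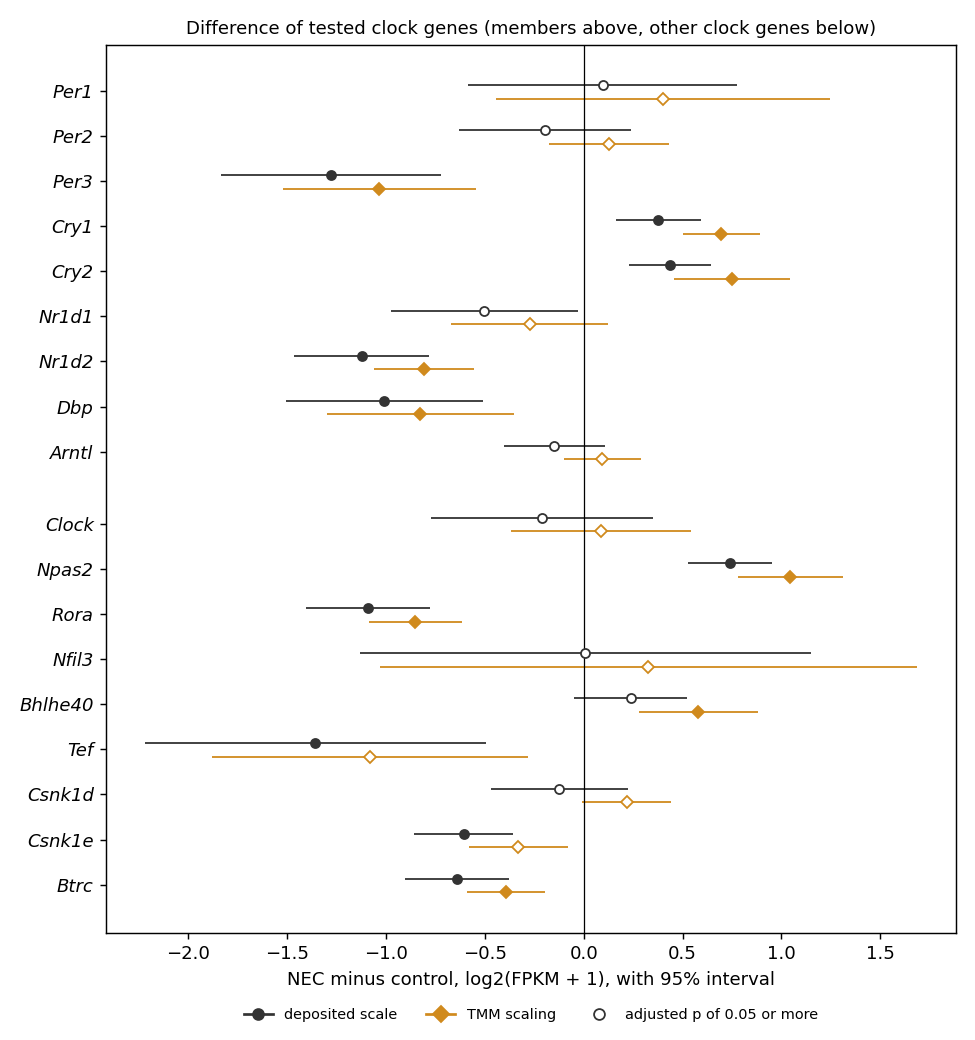
NEC minus control difference of tested clock genes on the log2(FPKM + 1) scale with its 95% interval, on the deposited scale (black circles) and with TMM scaling (orange diamonds), with filled symbols for an adjusted p under 0.05. Per3, Nr1d2, Dbp and Rora lie left of 0 and Cry1, Cry2 and Npas2 right of 0 on both scales, while Arntl, Per2, Clock and Csnk1d cross from left to right with TMM scaling and are open on both.

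Of 10 clock-controlled output genes known from other tissues, 8 were tested, 3 were higher, 3 were lower and 2 did not pass, where 7.69% of all tested genes were higher and 30.6% lower. Cdkn1a, a cell cycle inhibitor, Ppara, a nuclear receptor of fat metabolism, and Tsc22d3, which glucocorticoids also induce, rose by 0.65, 0.58 and 0.80 (adjusted p = 0.0103, 0.0231 and 0.0349, limma). Tspan4, a tetraspanin, and the Krüppel-like factor genes Klf10 and Klf11 fell by 0.37, 0.32 and 0.45 (adjusted p = 0.0305, 0.0357 and 0.0243), and with TMM scaling none of these falls was called. With control 1, 2 or 3 left out, Cdkn1a was the only gene of this list called. Usp2, a deubiquitinase gene that follows Dbp in many tissues, was under the filter, at 0.239, 0.466 and 0.533 FPKM in NEC and at 0.950, 0.903 and 0.757 FPKM in control.

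Markers of fibroblasts and of enteric neurons and glia were lower in the NEC libraries in which these clock genes were low. The 5 fibroblast markers summed to 87.9, 239 and 273 FPKM in NEC, against 589, 616 and 505 FPKM in control. All 5 were called lower, where 30.6% of all tested genes were. None of the 5 was called without control 1, 2 or 3, and 3 were without NEC 2 or with no filter. The collagen genes Col1a1, Col1a2 and Col3a1 made up most of that sum. By NEC mean over control mean the single markers ranged from 0.219 for Dcn to 0.655 for Pdgfra, which was not called with TMM scaling. As a percentage of the control mean the fibroblast sum was 15.4%, 41.8% and 47.9% in NEC 1, 2 and 3. Per3 was at 15.4%, 36.7% and 44.2%, Dbp at 11.0%, 36.2% and 48.1%, and Tef at 12.8%, 45.5% and 51.7%. Nr1d2 was at 34.2%, 48.4% and 44.0% and Rora at 25.3%, 39.6% and 38.8%, so both spread less among the NEC libraries than the fibroblast sum did. The 6 smooth muscle markers summed to 141, 678 and 671 FPKM in NEC, against 855, 912 and 767 FPKM in control, with none called, and NEC 1 was the library that stood out. Without NEC 1, 3 of these 6 were called lower, where 33.5% of all tested genes were. The 5 markers of enteric neurons and glia summed to 8.50, 12.2 and 14.0 FPKM in NEC and 26.3, 28.4 and 22.2 FPKM in control. Of these, 3 of 3 tested were called lower. Without control 1 or control 2, 1 of 3 was, where 9.93% and 8.92% of all tested genes were called in either direction. Elavl4, 1 of the 3, passed the filter of 1 FPKM through its control level, with an NEC mean of 0.701 FPKM. Endothelial markers summed to 18.1 to 24.8 FPKM in NEC and 29.7 to 34.1 FPKM in control, with 2 of 4 called lower. Leukocyte markers summed to 6.93 to 7.61 FPKM in NEC and 9.30 to 11.7 FPKM in control, with 1 of 4 tested called lower. Both counts are read against the 30.6% of all tested genes called lower. Of the leukocyte genes Itgam, a myeloid integrin, went the other way, at 1.39, 1.47 and 1.25 FPKM in NEC and 0.941, 0.611 and 0.942 FPKM in control. Its adjusted p was 0.0533 (limma), and it was called higher with TMM scaling and with quantile normalization. Itgam passed the filter of 1 FPKM through its NEC level, with a control mean of 0.831 FPKM. Ptprc, another of the 4 tested, passed it through its control level, with an NEC mean of 0.884 FPKM. The 7 enterocyte markers summed to 11750 to 14450 FPKM in NEC and 3156 to 3979 FPKM in control. All 7 were called higher, where 7.69% of all tested genes were. Apoa4 made up most of that sum in every library. By NEC mean over control mean they differed widely, at 1.69 for Vil1, 1.70 for Alpi, 1.81 for Apoa1 and 5.05 for Apoa4. Fabp2 was at 11.0, Sis at 20.5 and Fabp1 at 275. None of these 33 markers was listed at 0 in any library. The part of cell makeup in the clock gene differences was not tested.

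**Figure D5:**
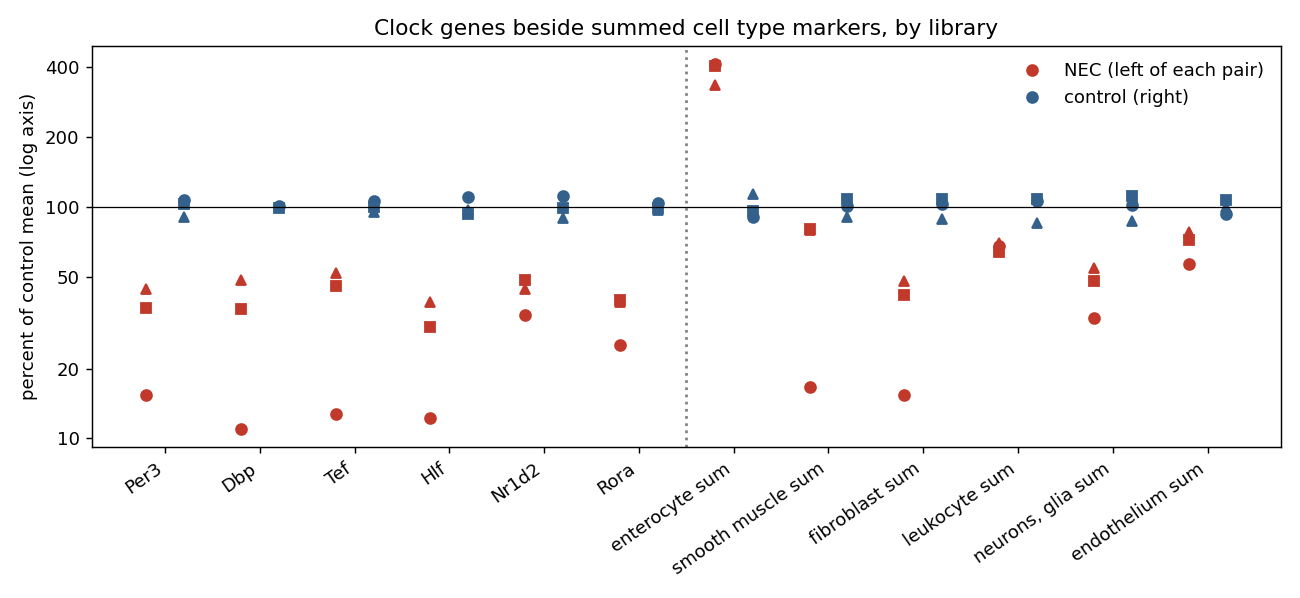
Level of 6 clock genes (left of the dotted line) and summed FPKM of cell type markers (right) in each library, as a percentage of the control mean on a log axis, NEC in red and control in blue, with circles, squares and triangles for libraries 1, 2 and 3. Per3, Dbp, Tef, Hlf, Nr1d2, Rora and the fibroblast sum, mostly collagen RNA, all lie at or below 51.7% of the control mean in NEC. The enterocyte sum, mostly Apoa4, lies at 336% to 413%.

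The genes most like 2 of the members in pattern were found by the root mean square difference of log2(FPKM + 1), centred per gene, over the 6 libraries. Among the 12379 tested genes left after pseudogenes, predicted genes and clone names were set aside, Faxc, Cacnb3, a calcium channel subunit, and Nbea, a neuronal trafficking protein, were closest to Dbp, at 0.0346, 0.0387 and 0.0394. Closest to Arntl were Crnkl1, a splicing factor, Clpx, a mitochondrial protease subunit, and Sptan1, a spectrin, at 0.0132, 0.0164 and 0.0181.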

How the data were processed

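RNA-seq of ileum gave 1 value per gene in 6 libraries. The submitters' processing notes name HISAT2, SAMtools 1.3.1, Cuffdiff and build mm10, and RNA with an integrity number above 7 went into TruSeq paired-end libraries, per the labels' protocols. For annotation and strand setting, nothing is given in the sources used here. No unit stands in the deposited table, and FPKM computed by the authors was inferred, because for genes with 1 transcript 78.9% to 94.1% of steps below 100 fragments were whole within 0.01. The 3 columns headed N were read as NEC, because the other 3 carry the control titles; every direction rests on that reading. All columns were used. Symbols and positions came from GENCODE M21 (55141 of 55487 identifiers matched), promoters from RefSeq.

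Values were tested as log2(FPKM + 1), a scale that understates changes of low genes, in limma 3.58.1 (R 4.3.3, empirical Bayes with trend) for all genes averaging 1 FPKM or more, with group as the only term and Benjamini-Hochberg adjustment over all of them. The members, lists and naming rule (all members, called genes of each list and further clock genes by name) were chosen with earlier results of these data known. On simulated data with 15806 genes, 200 changed, 60% of the changes sized log2 1 and 90% of those sized log2 2 were recovered, with 4 false calls. The simulation gave both groups the same SD per gene and changed few genes. These rates therefore may not hold for the data, where 38.2% of genes were called and genes such as Per1 spread more in NEC. Alternatives were a pseudocount of 0.1, a filter at 5 FPKM, no filter, TMM scaling (trimming 30% of ratios and 5% of levels), array weights, a fit without trend, a block on replicate number, quantile normalization and each library left out. Some results of the further lists are not reported here. Figures were drawn with matplotlib 3.10.9.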

Additional observations from a re-analysis of the deposited data

How the results depend on the processing

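Among clock genes, Nr1d2, Npas2 and Rora kept their direction and call in every alternative that tested them. The calls of Per3, Cry1, Cry2, Dbp, Tef, Csnk1e and Btrc were lost without at least 1 of the control libraries, and the cause was not tested. With 1 control library left out, log2 differences ranged from -1.34 to -1.24 for Per3, 0.36 to 0.39 for Cry1 and 0.43 to 0.45 for Cry2. The ranges were -1.01 to -1.0 for Dbp, -1.39 to -1.32 for Tef, -0.66 to -0.54 for Csnk1e and -0.68 to -0.62 for Btrc. All genes called higher and lower numbered 1215 and 4829. They were 2655 and 2264 with TMM scaling, 2202 and 2387 with quantile normalization, and 1746 were lower with the filter at 5 FPKM. With 1 library left out they ranged from 471 to 1566 higher and from 917 to 5378 lower. Clock members called higher and lower were 2 and 3. With 1 library left out they ranged from 0 to 2 and from 1 to 4, Nr1d1 passing without NEC 3, and with the filter at 5 FPKM, where Per3 and Dbp were not tested, 1 was lower. With the replicate number as a block 1 member was higher and 3 were lower, the Cry1 call being lost (adjusted p = 0.0598, limma). Deviations of same-numbered libraries from their group mean correlated at -0.051, -0.007 and -0.074. This gave no sign that the numbers pair the libraries, but with 3 libraries per group it cannot exclude pairing. With 3 pairs a paired permutation of the Arntl ratios cannot go below p = 0.25.

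Signs turned for differences that did not pass and for Klf10, which did. With TMM scaling Per2 was 0.13, Arntl 0.09, Clock 0.09 and Klf10 0.00. With quantile normalization Arntl was 0.21 and Clock 0.02. With 1 library left out, the lowest and highest values came without NEC 1 or without NEC 3. They were -0.18 and 0.41 for Per1, -0.42 and 0.02 for Clock, and -0.58 and 0.43 for Nfil3. Those for the ratio of Arntl to Per1 were -0.62 and 0.09. For Per2 they were -0.36 and 0.00, and for the ratio of Arntl to Per2 they were -0.09 and 0.15. Array weights gave Nfil3 -0.36. Nfil3 was -0.02 at a pseudocount of 0.1 and -0.03 without control 1. Nr1d1 passed as lower with array weights. Depth limits Dbp and Ciart most.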

Other observations

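Signals that can act on the clock from outside were read from genes of the glucocorticoid response and immediate early genes. Of 8 glucocorticoid receptor and responsive genes, 4 were higher and 1 was lower (limma, adjusted p under 0.05). Mt1 and Mt2, metallothioneins, rose by 2.07 and 2.20, Fkbp5, a chaperone of steroid receptors, by 2.01, and Hif3a by 0.48, while Nr3c1, the receptor gene, fell by 0.65. Of all tested genes 7.69% were higher and 30.6% lower. Fkbp5 passed the filter of 1 FPKM through its NEC level, and its log2 difference was 1.28 without NEC 1 and 2.86 at a pseudocount of 0.1. Fkbp5 was at 17.4, 3.37 and 2.80 FPKM in NEC, against 0.715, 0.563 and 0.761 FPKM in control. Sgk1, a kinase gene, was at 78.0, 36.3 and 11.5 FPKM in NEC and 10.9, 10.4 and 10.8 FPKM in control, and Zbtb16 was at 15.9, 1.98 and 1.06 against 1.32, 1.33 and 1.35 FPKM, neither passing. Klf9 was at 16.2, 9.98 and 8.45 FPKM in NEC and 10.5, 10.4 and 9.32 FPKM in control. Its groups overlapped and it did not pass (adjusted p = 0.643, limma). NEC 1 was the highest library for Fkbp5, Sgk1, Zbtb16, Mt1, Mt2 and Klf9, but not for Hif3a or Nr3c1. Among the clock genes it was the highest library for Per1, Cry2, Ciart and Nfil3, and the lowest NEC library for 7 of the 10 members. It was also the lowest NEC library for 13 of the 17 other clock genes. NEC 1 had 13461 genes at 1 FPKM, against 14541 in NEC 2 and 14882 in NEC 3. The share of all tested genes lowest in NEC 1 was not counted, so the 7 of 10 is not shown to be particular to the members. A link between the glucocorticoid genes and the clock genes was not tested. With TMM scaling the Nr3c1 call was lost (adjusted p = 0.174, limma), and with control 1, 2 or 3 left out Mt1 and Mt2 alone were called.

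Of 10 immediate early genes, which respond within minutes to stimulation, 8 were tested, none was higher and 3 were lower, where 30.6% of all tested genes were lower. Egr1 fell by 0.65, Nr4a1, a nuclear receptor gene, by 0.96 and Dusp1, a phosphatase gene, by 0.46. Egr1 and Nr4a1 passed the filter through their control level, with NEC means of 0.765 and 0.983 FPKM. With TMM scaling Nr4a1 alone was called, and without control 1 or control 2 none was. Fos was at 21.1, 12.4 and 2.09 FPKM in NEC, against 2.18, 1.21 and 1.27 FPKM in control, and did not pass (adjusted p = 0.0597, limma). It was called higher with the replicate number as a block, with array weights and without NEC 3.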
